A study of Saccharomyces cerevisiae with 48 samples.

Results

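The genes described here encode the proteasome of budding yeast and its transcriptional activator Rpn4. They were chosen by name: 14 genes of the core particle (PRE, PUP and SCL1), 18 genes of the regulatory cap (RPT and RPN) and RPN4, 33 of the 6713 ORFs in the authors' table of pooled mRNA levels. The tables of read counts hold 3301 genes, among them 32 of the 33. PRE8, an outer ring subunit of the core, is in the pooled table only.

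The proteasome is the protease that degrades proteins marked with ubiquitin. Its core is a barrel of stacked rings, with outer alpha rings that gate the entrance and inner beta rings that hold the cutting sites, and the cap on its end binds ubiquitin chains, removes them and unfolds the substrate with a ring of ATPases. In yeast, Rpn4 binds the promoters of most proteasome genes and activates them, and Rpn4 itself is a short-lived substrate of the proteasome, which closes a feedback loop. Several cell cycle regulators, such as the cyclins and securin, are proteasome substrates.

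Messenger RNA and ribosome footprints, the stretches of mRNA that ribosomes protect from nuclease, were measured in the diploid laboratory strain BY4743, grown in YPD (rich glucose medium) at 30 °C. The series title names translational control of lipid synthesis in the cell cycle. Newborn unbudded cells were collected by centrifugal elutriation, which separates cells by size, and left to grow until harvest at 40, 45, 50, 55, 60, 65, 70 or 75 fl. Each size had 3 pools of cells, replicates A, B and C, which the labels call independent, and each pool gave 1 footprint library and 1 poly(A) mRNA library. No strain other than BY4743 and no drug or mutant was compared, and cells of 1 size from several fractions were pooled. Cell size is thus the only labelled variable. Time of growth after elutriation and cell cycle stage go with size, and their effects cannot be told apart here. A read share cannot tell fewer expressing cells from less RNA per cell, and the amount of RNA per cell was not measured.

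Footprint libraries held 26360 to 5659096 counted reads and mRNA libraries 248840 to 5797532. Shallow footprint libraries, under 150000 reads, numbered 6 of 24: those of 50 and 65 fl in replicates B and C, and those of 60 and 70 fl in replicate C. The footprint libraries of replicate A stand apart. Core histone genes, which are transcribed in S phase, had mean footprint slopes of -0.47 log2 per 5 fl in replicate A, 0.44 in B and 0.58 in C, whereas their mRNA slopes in the same pools were 0.39, 0.42 and 0.44. All 7 counted core histone mRNAs rose along size (edgeR quasi-likelihood, adjusted p under 0.05). Whether the size labels of these footprint libraries are right was not tested, and every footprint value that includes replicate A carries that doubt. Tests of footprints, translational efficiency and footprint levels per length are therefore also given without replicate A, whereas ranges over libraries include it.

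Proteasome mRNA was highest in cells of 40 and 45 fl and lower in large cells. In cells of 40, 45 and 50 fl the 32 counted genes took 1.67% ± 0.197 (SD, n = 3), 1.91% ± 0.183 and 1.50% ± 0.140 of all counted mRNA reads. In cells of 55 and 60 fl they took 1.41% ± 0.267 and 1.22% ± 0.416, and in cells of 65, 70 and 75 fl 1.14% ± 0.0247, 1.12% ± 0.115 and 1.18% ± 0.0235. The mean level over the 3 replicates was highest at 45 fl in 27 of the 32 genes, and 13, 7 and 5 genes had their lowest mean in cells of 70, 75 and 65 fl. Levels below are log2 CPM, the log2 of a gene's reads scaled to a library of 1000000 reads with TMM factors, and a slope is the change in log2 CPM per 5 fl of cell size.

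Along size 22 of the 32 mRNAs fell and 0 rose in edgeR's quasi-likelihood test, at a Benjamini-Hochberg adjusted p under 0.05 over all 3301 genes. Over all genes 41.6% were called, 22.1% as lower and 19.4% as higher. The median slope was -0.11 over the 32 genes and -0.0031 over all genes, and 30 of the 32 slopes were below 0. Of the core genes 8 of 13 fell and of the cap genes 13 of 18, and RPN4 fell as well. Leaving out 1 whole replicate left 15 (without A), 13 (without B) or 14 (without C) that fell, and leaving out any 1 library left 19 to 23. Calls over all genes, in either direction, numbered 1372 in the main fit. They were 959 without A, 1007 without B and 887 without C, and 1203 to 1434 without any 1 library.

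**Figure D1:**
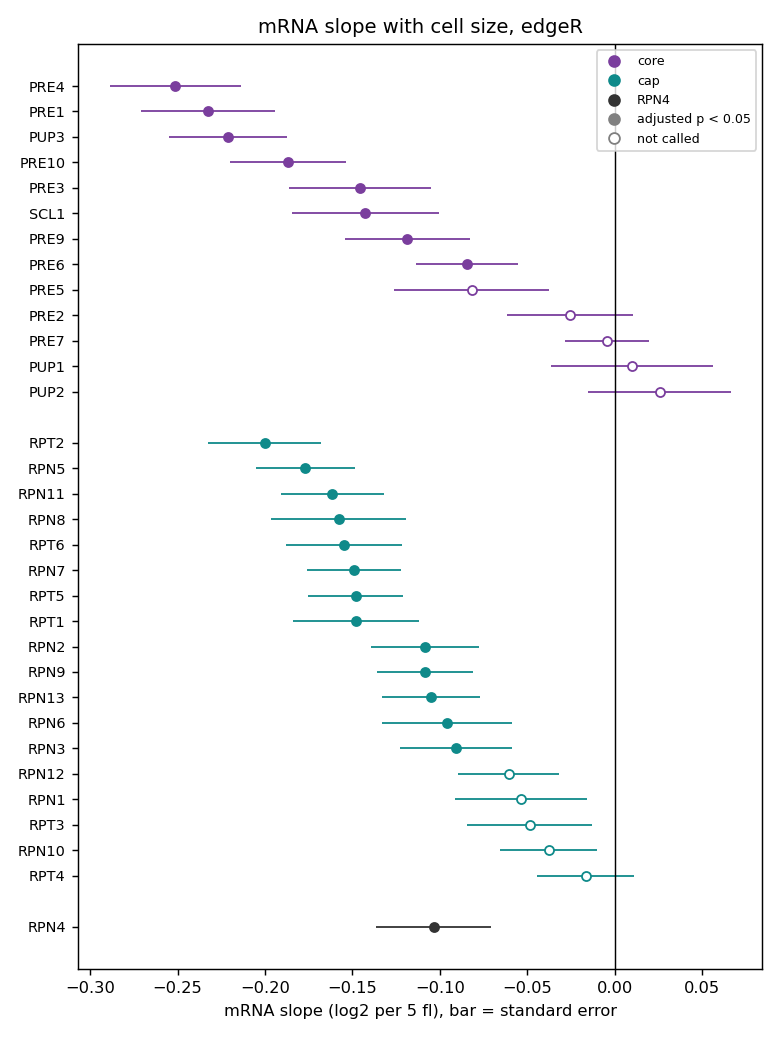
Slope of mRNA with cell size (log2 per 5 fl, horizontal axis) for each of the 32 counted genes, with core genes on top, cap genes in the middle and RPN4 below. Bars are standard errors and filled points passed at an adjusted p under 0.05. Slopes run from -0.25 for PRE4 to 0.03 for PUP2, and every filled point lies left of 0.

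The alpha ring genes, which form the gate and dock the cap, split into 4 that fell and 2 that were not called. PRE10 (YOR362C) fell most steeply among them, by 0.19 log2 per 5 fl (SE 0.03, edgeR adjusted p = 8.5e-05). SCL1 had a slope of -0.14, PRE9 of -0.12 and PRE6 of -0.08, and these 3 fell as well. PRE9 encodes the only core subunit that yeast can live without. The slope of PRE5 was -0.08 (SE 0.04) and was not called (edgeR adjusted p = 0.141).

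PUP2 (YGR253C) was the alpha ring gene whose values went least with the others. Its mRNA stood at 8.44, 9.37 and 9.61 log2 CPM at 40 fl in replicates A, B and C and at 9.82, 9.75 and 9.86 at 75 fl. The 40 fl library of replicate A is the lowest of all, and the 65 to 75 fl libraries (9.50 to 10.03) lie within the range of the 40 and 45 fl libraries (8.44 to 10.37). Its slope was 0.03 (SE 0.04, edgeR adjusted p = 0.637), so no change with size was detected for it. PUP2 and PUP1 were the 2 of the 32 genes with a fitted slope above 0.

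In the beta ring, 4 of 7 mRNAs fell: PRE4 (slope -0.25), PRE1 (-0.23), PUP3 (-0.22) and PRE3 (-0.15). Of these PRE3 alone carries a cutting site. PRE4 (YFR050C, chromosome VI, 249066 to 249866 in assembly R64) had the smallest p of the core. Its protein joins the beta ring late and links the paired rings of the core. From 40 to 75 fl its mRNA was 9.34, 9.04, 7.97, 7.30, 6.58, 6.97, 7.26 and 6.89 log2 CPM in replicate A. In replicate B it was 7.92, 8.21, 7.98, 7.88, 7.91, 7.03, 7.02 and 7.57, and in replicate C 8.30, 8.63, 7.83, 8.07, 6.96, 7.33, 6.79 and 7.11. All 9 libraries of 65 to 75 fl lie below all 6 libraries of 40 and 45 fl, and at 60 fl replicates A and C are low while B is still high. The slope was -0.25 (SE 0.04, edgeR adjusted p = 1.23e-05), and the difference between the means of these large and small cells was -1.46 log2.

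Of the catalytic subunits PRE3 was called and PUP1 and PRE2 were not, and the difference between their slopes was not tested. PRE3 carries the caspase-like site, PUP1 the trypsin-like site and PRE2 the chymotrypsin-like site, which does most of the cutting. PRE3 (YJL001W, chromosome X, 435163 to 435926) mRNA had a lowest, median and highest value of 6.92, 7.15 and 7.71 in the 9 libraries of 65 to 75 fl and of 6.87, 8.23 and 8.72 in the 6 libraries of 40 and 45 fl. The groups overlap only through replicate B, whose 40 fl library (6.87) and 45 fl library (7.32) are low. PRE3 fell (slope -0.15, SE 0.04, edgeR adjusted p = 0.00558) and was not called without replicate A or without replicate C (slopes -0.11 and -0.13).

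PRE2 (YPR103W, chromosome XVI, 732349 to 733212) had 8.40, 8.66 and 9.06 (lowest, median, highest) in the 65 to 75 fl libraries and 8.31, 8.73 and 9.30 in the 40 and 45 fl libraries. The ranges overlap almost whole, and its mean was highest at 55 fl. PUP1 (YOR157C, chromosome XV, 630966 to 631751) had 6.18, 6.57 and 7.20 in the 65 to 75 fl libraries and 5.11, 6.70 and 6.99 in those of 40 and 45 fl. The lowest of these, 5.11, is the 40 fl library of replicate C, 1 of 3 mRNA libraries under 1000000 reads. The slopes of PRE2 (-0.03, SE 0.04) and PUP1 (0.01, SE 0.05) were not called (edgeR adjusted p = 0.599 and 0.891). The slope of PUP1 was -0.0093 without replicate A and -0.022 without those 3 libraries. PRE7 (YBL041W, chromosome II, 141247 to 141972), a beta subunit with no cutting site, had the largest p of the core. It stayed between 7.73 and 8.11 in the 65 to 75 fl libraries and between 7.70 and 8.28 in those of 40 and 45 fl (slope -0.0044, SE 0.02, edgeR adjusted p = 0.906).

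**Figure D2:**
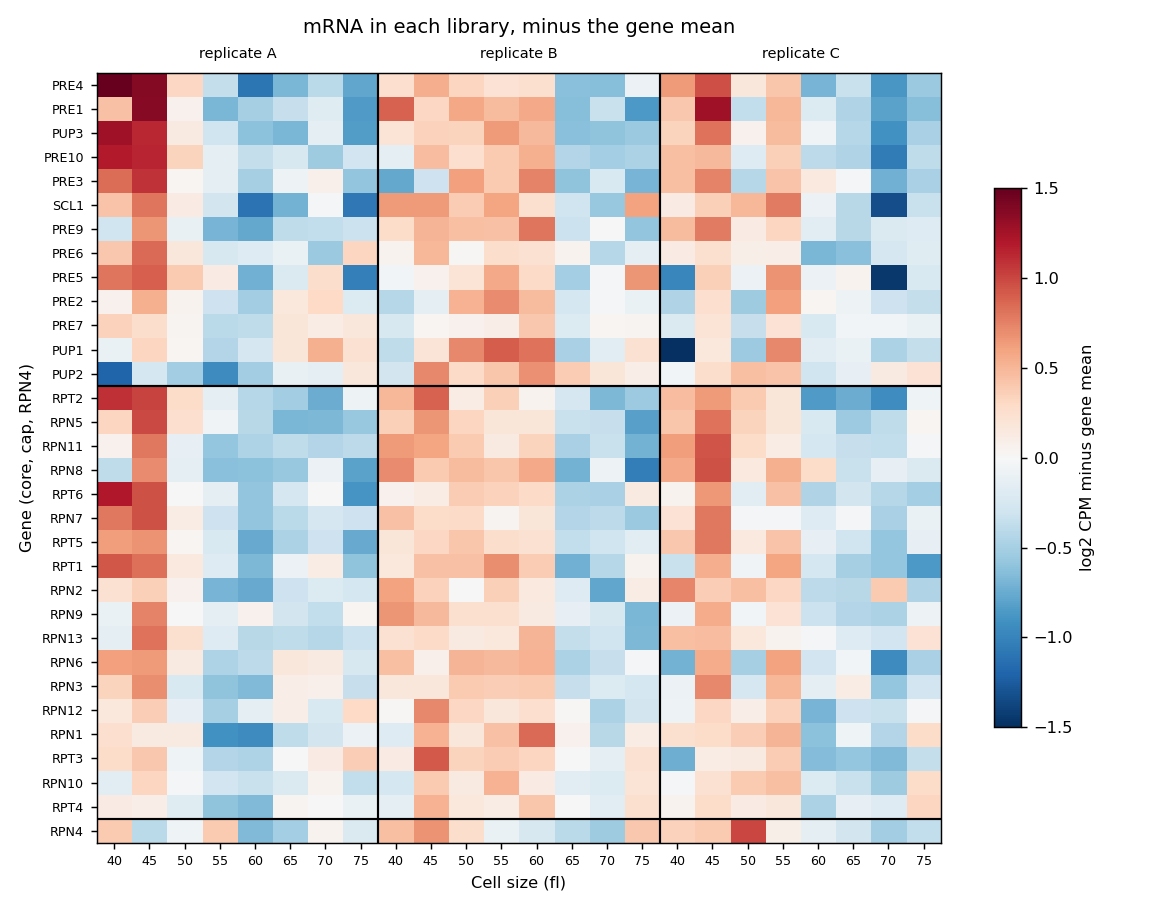
mRNA of each counted gene (rows: core, cap, then RPN4) in each of the 24 mRNA libraries (columns: cell size in fl, in 3 blocks for replicates A, B and C), as log2 CPM minus the gene's mean over libraries, red above and blue below it, with colours that stop at 1.5 either way. Most rows turn to blue at 50 to 55 fl in replicate A, at 65 fl in B and at 60 fl in C.

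Of the 6 ATPase genes, whose products unfold the substrate and feed it into the core, 4 fell: RPT2 (-0.20), RPT6 (-0.15), RPT5 (-0.15) and RPT1 (-0.15). RPT2 (YDL007W, chromosome IV, 438047 to 439360), one of the ATPases whose tail opens the gate of the core, had 9.35, 9.73 and 10.22 (lowest, median, highest) in the 65 to 75 fl libraries and 10.74, 11.04 and 11.37 in the 40 and 45 fl libraries. These groups do not overlap. RPT3 was not called (slope -0.05, SE 0.04, edgeR adjusted p = 0.28). RPT4 (YOR259C, chromosome XV, 812395 to 813708) had the largest p of the cap, with 8.20, 8.39 and 8.72 in the 65 to 75 fl libraries and 8.24, 8.50 and 8.91 in those of 40 and 45 fl. Its slope was -0.02 (SE 0.03, edgeR adjusted p = 0.659). Each ATPase is present in 1 copy in the ring.

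The scaffold and receptor genes of the cap had a median slope of -0.08, against -0.15 for the ATPases and -0.13 for the lid. RPN2, a scaffold, and RPN13, a ubiquitin receptor, fell (both slopes -0.11), with edgeR adjusted p = 0.00645 and 0.00416. RPN1, the scaffold that docks shuttle factors, had a slope of -0.05, and RPN10, a ubiquitin receptor that also exists free of the proteasome, of -0.04. Neither of these 2 was called (edgeR adjusted p = 0.259 and 0.283).

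In the lid, the part that removes ubiquitin chains, 7 of 8 mRNAs fell: RPN5 (-0.18), RPN11 (-0.16), RPN8 (-0.16), RPN7 (-0.15), RPN9 (-0.11), RPN6 (-0.10) and RPN3 (-0.09). RPN6 links the lid to the core, and RPN8 encodes the inactive partner of Rpn11. RPN12, the last lid subunit to join, had a slope of -0.06 (edgeR adjusted p = 0.0929). RPN5 (YDL147W, chromosome IV, 190924 to 192261), a structural subunit, had the smallest p of the cap (slope -0.18, SE 0.03, edgeR adjusted p = 2.64e-05). It had 9.35, 9.63 and 10.20 (lowest, median, highest) in the 65 to 75 fl libraries and 10.49, 10.71 and 11.16 in those of 40 and 45 fl. RPN11 (YFR004W, chromosome VI, 153393 to 154313), the deubiquitinase itself, had 8.47, 8.80 and 9.15 in the 65 to 75 fl libraries and 9.24, 9.82 and 10.13 in those of 40 and 45 fl. Neither gene's groups overlap.

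Over the 32 genes, the 65 to 75 fl libraries all lie below those of 40 and 45 fl in 9: PRE10, PUP3, PRE1, PRE4, RPT2, RPT5, RPN5, RPN7 and RPN11. This was so in 7.18% of all genes. Across the 8 sizes as separate groups, 10 of the 32 genes differed, 4 of the core and 6 of the cap, where 25.9% of all genes did (edgeR F-test, adjusted p under 0.05). They are the 9 genes just named and RPN8. With DESeq2 this count was 17, where 1385 of all genes were called. It was 3 if replicate B was left out and 0 if replicate C was, where 221 and 110 of all genes were called.

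RPN4 (YDL020C, chromosome IV, 415113 to 416708) fell along size (slope -0.10, SE 0.03, edgeR adjusted p = 0.0142). From 40 to 75 fl its mRNA was 7.93, 7.13, 7.47, 7.93, 6.87, 7.03, 7.59 and 7.32 log2 CPM in replicate A. In replicate B it was 7.99, 8.21, 7.80, 7.44, 7.29, 7.13, 7.00 and 7.94, and in replicate C 7.88, 7.92, 8.54, 7.62, 7.38, 7.26, 7.01 and 7.17. The values are low at 60 and 65 fl in all 3 replicates, and those of 65 to 75 fl (7.00 to 7.94) overlap those of 40 and 45 fl (7.13 to 8.21). The mean of RPN4 was highest at 50 fl, not at 45 fl as for most subunits. RPN4 was not called across the 8 sizes (edgeR adjusted p = 0.0924), and its slope was not called if replicate B, replicate C or the 3 mRNA libraries under 1000000 reads were left out (slopes -0.10, -0.07 and -0.10).

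**Figure D3:**
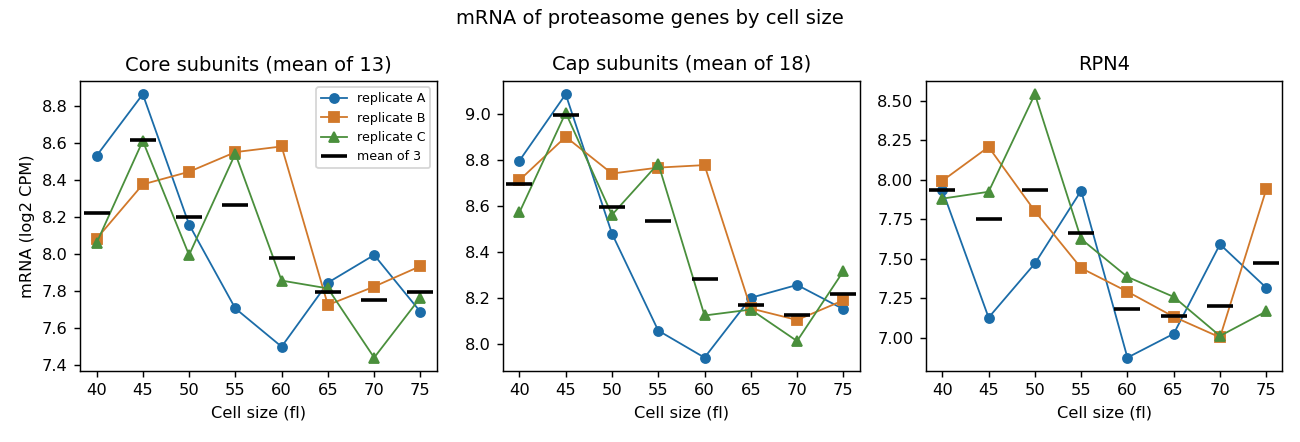
mRNA level (log2 CPM, vertical axes) against cell size (fl) for the mean of 13 core genes, the mean of 18 cap genes and RPN4, with 1 line for each replicate and a bar for the mean of 3. Lines join libraries of the same letter, which is not stated to pair pools of different sizes. The core and cap means have their largest drops together in each replicate, after 45 fl in A, after 60 fl in B and after 55 fl in C, whereas RPN4 has its largest drops at other sizes.

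The drop came at a different size in each replicate. Among neighbouring sizes, the mean of the 32 genes dropped most between 45 and 50 fl in replicate A (8.32 at 50 fl against 8.94 at 45 fl). In replicate B it dropped most between 60 and 65 fl (7.95 at 65 fl against 8.65 at 60 fl), and in replicate C between 55 and 60 fl (7.99 at 60 fl against 8.65 at 55 fl). These steps were picked from the same values, so they are a description. Replicate letters are not stated to pair pools of different sizes, so a step may lie between unrelated pools. Core histone mRNA had its largest increase between 50 and 55 fl in replicate A, 45 and 50 fl in B and 55 and 60 fl in C. The sizes of the proteasome drop and of the histone increase were thus the same in replicate C, while the drop lay at smaller sizes than the increase in A and at larger sizes in B. Whether the replicates reach a given cell cycle stage at different sizes was not tested. RPN4 dropped most between 55 and 60 fl in A, 45 and 50 fl in B and 50 and 55 fl in C, at smaller sizes than the subunits in B and C and at larger sizes in A.

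Contrasts between size classes were made as well. In 50 to 60 fl cells against 40 and 45 fl cells, 10 mRNAs fell (PRE10, PUP3, PRE1, PRE4, RPT2, RPT5, RPT6, RPN5, RPN7 and RPN11) and 0 rose, where 26.4% of all genes were called, 14.2% as lower and 12.1% as higher. In 65 to 75 fl cells against 50 to 60 fl cells, 5 fell (PRE10, PUP3, PRE1, RPT2 and RPN5) and 0 rose, where 7.21% were called, 3.09% as lower and 4.12% as higher. The median differences were -0.32 and -0.34 over the 32 genes, against -0.02 and -0.03 over all genes. The first count was 0 without replicate A, with PUP1 then rising, and 2 without C, where 650 and 372 of all genes were called. It was 4 without the 45 fl library of replicate C, 5 without the 45 fl library of A, and 6 without any 1 of the 40, 55 and 60 fl libraries of A or the 60 fl library of C. The second was 10 without A and 0 without B or C, and it was 8 without the 55 fl library of A. It was 2 or 3 without any 1 of the other 13 libraries that moved it by over 1.5 times: the 45 fl library of C, the 50 and 60 fl libraries of B, the 55 fl libraries of B and C, all those of 65 and 70 fl, and the 75 fl libraries of A and B. Over all genes, fits without 1 library called 604 to 1048 in the first contrast and 126 to 351 in the second. For the second contrast without 1 whole replicate, the counts over all genes are not given here. Whether its member counts of 10 and 0 follow the number of calls over all genes therefore cannot be told.

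Within each replicate the slopes were of 1 sign for most genes. Slopes fitted in 1 replicate were below 0 for 30 genes in A, 28 in B and 30 in C, and in all 3 for 27 of the 32, where 32.6% of all genes had 3 slopes below 0. The exceptions were PUP2, PUP1, PRE5, PRE2 and PRE7, all of the core. The difference in mRNA slope between replicate A and the mean of B and C was called for 0 of the 32 genes and 0% of all genes (edgeR, with 4 and 341 at an unadjusted p under 0.05).

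Subunit mRNAs went up and down together from library to library. The median Pearson correlation of log2 CPM over the 24 mRNA libraries was 0.57 between pairs of the 32 genes, 0.54 within the core, 0.59 within the cap and 0.58 between a core and a cap gene, against -0.0038 over all pairs of counted genes. After each size mean was subtracted it was still 0.43 over the 32 genes. Libraries share their depth and composition with every gene measured in them, so these are descriptions. PRE1 followed the other subunits most closely (median correlation 0.75) and PUP2 and PUP1 least (0.17 and 0.30). RPN4 had a median correlation of 0.32 with the subunits, and of -0.09 once size means were removed.

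The authors' deposited table of pooled levels, which gives 1 log2 value per size relative to a gene's mean with the replicates combined, covers all 33 genes. In the authors' deposited table the median of the 33 genes from 40 to 75 fl was 0.36, 0.38, -0.0049, -0.05, -0.24, -0.35, -0.26 and -0.29. At 45 fl 32 of the 33 genes, and 26.6% of the ORFs with a value, were above 0 in the authors' deposited table. PRE8 (YML092C, chromosome XIII, 85987 to 86739) ran 0.71, 0.18, -0.08, 0.11, -0.41, -0.59, -0.29 and -0.05 in the authors' deposited table, highest at 40 fl and lowest at 65 fl. PUP2 had the opposite order in the authors' deposited table, with -0.89 at 40 fl and 0.23 at 75 fl.

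Genes that work with the proteasome were taken from lists of assembly factors and partners, ubiquitin delivery and Rpn4 turnover, and activators of RPN4. Of 16 partners 9 were counted, of which 4 fell and 1 rose along size, beside the 22.1% and 19.4% of all genes given above. UMP1, the maturation factor of the core, fell (slope -0.14, SE 0.03, edgeR adjusted p = 0.000367), as did BLM10, an alternative cap (-0.17), ECM29, which tethers cap to core (-0.19), and HUL5, a ubiquitin ligase bound to the proteasome (-0.08). IRC25, a chaperone of alpha ring assembly, rose (0.16, SE 0.04, edgeR adjusted p = 0.00328). SEM1, a small lid subunit kept in this list, had a slope of -0.08 (edgeR adjusted p = 0.0816), and UBP6, the deubiquitinase on the scaffold, of -0.01.

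Of 16 delivery genes 15 were counted, of which 3 fell and 1 rose, beside 22.1% that fell and 19.4% that rose over all genes. UFD1, a cofactor of the segregase Cdc48, fell (-0.28), as did UBI4, the polyubiquitin gene (-0.19), and MUB1 (-0.13), which works with the ligase Ubr2 in the turnover of Rpn4. UBI4 and the histone genes have near-identical copies, so their counts are uncertain. UFD2, which lengthens ubiquitin chains, rose (0.12). UBA1, the ubiquitin-activating enzyme, had a slope of -0.0004. Of the 4 activators of RPN4, YAP1 fell (-0.12, SE 0.02, edgeR adjusted p = 0.000205), whereas PDR1 (-0.05), PDR3 (-0.02) and HSF1 (0.02) were not called. The lists' median slopes were -0.08 for partners, -0.04 for delivery and -0.03 for the activators, against -0.0031 over all genes.

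No change of footprints with size passed the test over all 3 replicates. The slope was called for 0 of the 32 genes and for 0% of all genes (edgeR, adjusted p under 0.05), with 0 of the 32 genes and 188 of all genes at an unadjusted p under 0.05, and limma-voom and DESeq2 also called 0 of the 32. Across the 8 sizes 0 of the 32 genes and 0.333% of all genes were called, and 0 and 126 had an unadjusted p under 0.05, while DESeq2 and limma-voom called 0 of the 32. In none of the 32 genes did the footprints of the 65 to 75 fl libraries all lie below those of 40 and 45 fl, as they did in 0.0909% of all genes. The median footprint slope of the 32 genes was -0.03. From 40 to 75 fl the 32 genes took 0.564%, 0.672%, 0.602%, 0.575%, 0.446%, 0.468%, 0.378% and 0.514% of footprint reads on average, with SDs (n = 3 each) of 0.104 to 0.251.

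**Figure D4:**
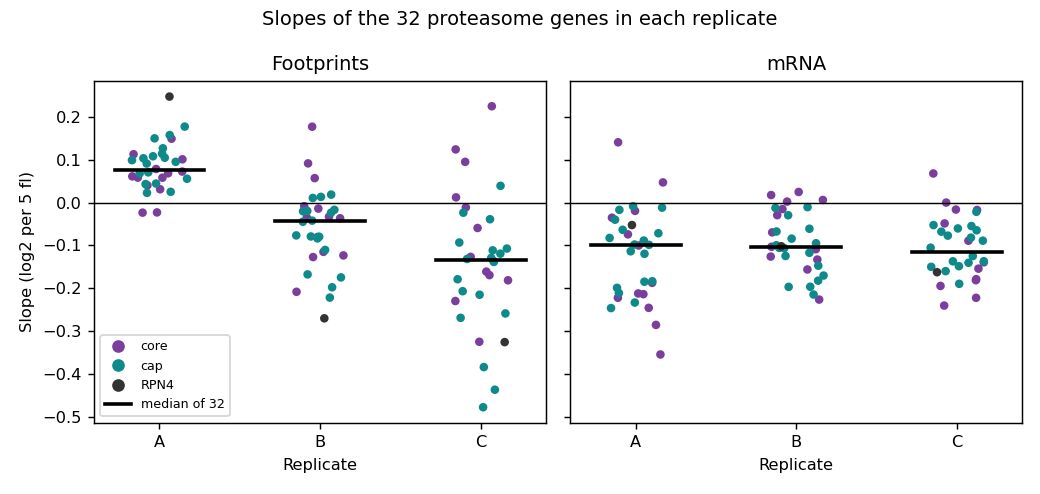
Slope with cell size (log2 per 5 fl) of each of the 32 counted genes, fitted within 1 replicate, for footprints (left) and mRNA (right), with the median of 32 as a bar. In replicate A 30 of 32 footprint slopes are above 0, while 26 in B and 27 in C are below 0 and the mRNA medians lie between -0.11 and -0.10 in all 3.

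The replicates disagreed in the direction of the footprints. Footprint slopes were above 0 for 30 of the 32 genes in replicate A (median 0.08) and below 0 for 26 in B (median -0.04) and 27 in C (median -0.13). The median over all genes was 0.008 in A, 0.007 in B and -0.11 in C, so that in replicate C, which holds 4 of the 6 shallow libraries, the genes as a whole also had slopes below 0. In replicate A the mean footprint level of the 32 genes was 6.94, 6.95, 6.88, 6.90 and 6.96 from 40 to 60 fl and 7.47, 7.34 and 7.41 from 65 to 75 fl. In replicate B it was 7.27, 7.42, 6.82, 7.51 and 7.58 from 40 to 60 fl and 6.80, 6.71 and 7.01 from 65 to 75 fl.

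The difference in footprint slope between replicate A and the mean of B and C was called as higher in A for 3 of the 32 genes, RPT2, RPN11 and RPN4, where 25.9% of all genes were called and 15% as higher (edgeR, adjusted p under 0.05). It was above 0 for 31 of the 32 genes, with a median of 0.16, against 0.03 over all genes. The count was 0 without the 40 fl library of replicate A, 1 without its 45 fl or its 75 fl library, and 5 without the 40 fl library of C. It was 10 without the 6 shallow libraries, 7 with median-of-ratios factors and 19 with DESeq2. Over all genes, fits without 1 library called 400 to 1002. The counts over all genes for the shallow-library, median-of-ratios and DESeq2 settings are not given here, so these member counts do not set the proteasome apart.

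RPN4 had the largest such difference, 0.42 log2 per 5 fl (SE 0.13, edgeR adjusted p = 0.0104). From 40 to 75 fl its footprints were 4.98, 6.03, 5.45, 5.73, 5.89, 6.30, 7.05 and 6.83 log2 CPM in replicate A. In replicate B they were 6.41, 7.05, 7.65, 5.53, 5.45, 4.38, 5.20 and 5.90, and in replicate C 6.78, 6.74, 8.21, 5.85, 5.75, 0.57, 6.69 and 6.20. Replicate A is low in small cells and high in large ones, and B and C are highest at 50 fl, where the values rest on 10 and 19 reads in libraries of 40140 and 54111 reads. The value of 0.57 stands for 0 reads in the 65 fl library of C. In that library of 26360 reads, a count of 0 allows up to 114 CPM (3 reads), a limit above most values of the other libraries.

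RPN11 footprints were 6.46, 6.36, 6.49, 7.46, 6.93, 7.32, 7.52 and 7.48 from 40 to 75 fl in replicate A. In B they were 7.47, 7.42, 8.13, 7.16, 7.40, 5.33, 6.27 and 6.81, and in C 7.39, 7.90, 6.78, 7.47, 6.73, 0.57 (0 reads), 5.40 and 6.71. In A the cells of 40 and 45 fl are lower than in B and C and those of 65 to 75 fl are higher (difference 0.36, SE 0.11, edgeR adjusted p = 0.014). RPT2 footprints were 6.73, 6.87, 6.93, 6.93, 6.87, 7.41, 7.74 and 7.80 from 40 to 75 fl in replicate A, 7.74, 7.75, 5.94, 7.47, 7.77, 6.30, 6.57 and 7.06 in B, and 7.55, 7.70, 6.78, 7.87, 6.73, 7.41, 4.45 and 6.54 in C. At 40 and 45 fl A lies below B and C, at 70 and 75 fl above them, and at 65 fl A and C have the same value (difference 0.32, SE 0.11, edgeR adjusted p = 0.0208). The RPT2 values at 65 fl in B and C rest on 4 reads each, and that at 70 fl in C on 1 read. The replicates thus part at the ends of the size range, and the mRNA of RPT2, RPN11 and RPN4 had slopes below 0 in all 3 replicates.

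Without replicate A the footprint slope was below 0 for 31 of the 32 genes, with a median of -0.09, but RPN11 alone was called as lower (-0.21, edgeR adjusted p = 0.0259), where 24.1% of all genes were called and 15.1% as lower. RPT2 (-0.18) and RPN4 (-0.21) had adjusted p of 0.0549 and 0.0562. Across the 8 sizes RPN4 was called (edgeR adjusted p = 0.0128), where 18.8% of all genes were. In 65 to 75 fl cells against 50 to 60 fl cells, RPN11 (-1.55) and RPT3 (-1.39) were called as lower, where 7.06% of all genes were called and 3.64% as lower. In these fits only shallow libraries stand for 50 and 65 fl, so the calls rest partly on few reads. At 65 fl RPN11 had 2 reads in B and 0 in C. RPN4 had 10 and 19 reads at 50 fl in B and C, and 1 and 0 at 65 fl. In 50 to 60 fl cells against 40 and 45 fl cells 0 of the 32 were called, with 2 at an unadjusted p under 0.05, where 7.69% of all genes were called and 5.6% as lower.

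The subunits whose mRNA was described above by library had overlapping footprint ranges in large and small cells. PRE4 had a lowest, median and highest footprint value of 5.45, 7.45 and 8.09 in the 65 to 75 fl libraries and of 7.07, 7.47 and 7.62 in those of 40 and 45 fl. RPN5 had 4.38, 7.04 and 7.77 in the 65 to 75 fl libraries and 6.75, 7.69 and 7.83 in the smaller cells. The medians of PRE4 thus lie close together, where its mRNA groups were apart. PRE3 had a median of 6.67 in the 65 to 75 fl libraries and 6.80 in those of 40 and 45 fl, PUP1 of 7.01 and 7.17, PRE2 of 7.15 and 7.14, PRE7 of 7.02 and 6.93, and RPT4 of 7.02 and 7.08. The lowest values in the large cells, 4.38 to 5.45 for PRE2, PRE4, PRE7, PUP1 and RPN5, come from shallow libraries.

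The ratio of footprints to mRNA, called translational efficiency, had a slope above 0 for 28 of the 32 genes, with a median of 0.09 against -0.0015 over all genes, but 0 of the 32 and 0% of all genes were called (edgeR). At an unadjusted p under 0.05 there were 9 of the 32 and 416 of all genes. Without replicate A the slope was above 0 for 16 of the 32 genes, with a median of -0.0013 against -0.04 over all genes. In that fit 0 of the 32 were called and 0 had an unadjusted p under 0.05, where 0.879% of all genes were called (edgeR). The majority of slopes above 0 was thus not seen without replicate A, whose footprint slopes had a median of 0.08, though the median of the 32 genes still lay above that of all genes. The cause was not tested. PRE4 had the smallest p (slope 0.26, edgeR adjusted p = 0.0908), and without replicate A its slope was 0.13 (edgeR adjusted p = 0.462). It was called with DESeq2 (0.24), without the 6 shallow libraries (0.24), without the libraries in which 1 gene took over 5% of reads (0.27), and without the 70 fl footprint library of replicate B (0.27), and in the first 2 cases PRE10 and RPN7 were called too, as was PUP3 without the shallow libraries. Over all genes these fits called 127, 54, 12 and 7, in that order. With limma-voom 0 of the 32 were called. Across the 8 sizes 0 of the 32 genes and 0.333% of all genes were called, with 1 and 189 at an unadjusted p under 0.05, and DESeq2 called 0 of the 32. Without replicate A these counts were 0 of the 32 genes and 1.06% of all genes (edgeR), with 1 and 491 at an unadjusted p under 0.05.

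Averaged over all sizes, footprints stood at different heights above or below mRNA from subunit to subunit. The difference between footprint and mRNA levels was called for 28 of the 32 genes, 5 as higher and 23 as lower, where 88.9% of all genes were called, 20.7% as higher and 68.3% as lower (edgeR). The median difference of all genes was -1.23 log2, as was that of the 32 genes. Without replicate A 28 were called again, 6 as higher and 22 as lower, where 87% of all genes were called, 19.4% as higher and 67.6% as lower, and the medians were -1.30 over the 32 genes and -1.48 over all genes. Relative to that median, with footprints rescaled, 13 were called as higher and 12 as lower, where 83.8% of all genes were called, 42.3% as higher and 41.5% as lower. On this second scale the highest were SCL1 (2.26), PRE5 (2.21), RPT6 (1.75) and PUP1 (1.64), and the lowest PRE9 (-1.89), RPT2 (-1.88) and RPN5 (-1.71). RPN4 was near the median gene (-0.11, edgeR adjusted p = 0.578).

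Per length of gene, the 31 subunits were alike in footprints and far apart in mRNA. Footprints, as log2 CPM per kilobase averaged over 24 libraries, ran from 6.42 for RPN9 to 7.72 for PUP3, a 2.46-fold span, with an SD over genes of 0.39. Messenger RNA ran from 6.29 for RPT6 to 10.76 for PRE9, a 22.2-fold span, with an SD of 1.19. Over the 3260 counted genes with a known length the SDs were 2.28 for footprints and 1.90 for mRNA. Across the 31 subunits the Pearson correlation of the measures was -0.03 and Spearman's rho -0.07, whereas over the 3260 genes r was 0.60 and rho 0.56. Without replicate A the footprint SD over the 31 subunits was 0.43, the span 2.96-fold and r -0.10, and in the 10 libraries of 150000 or more reads from B and C the SD was 0.37, the span 2.44-fold and r 0.17. These correlations are across genes of the same libraries, so they describe and do not test.

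**Figure D5:**
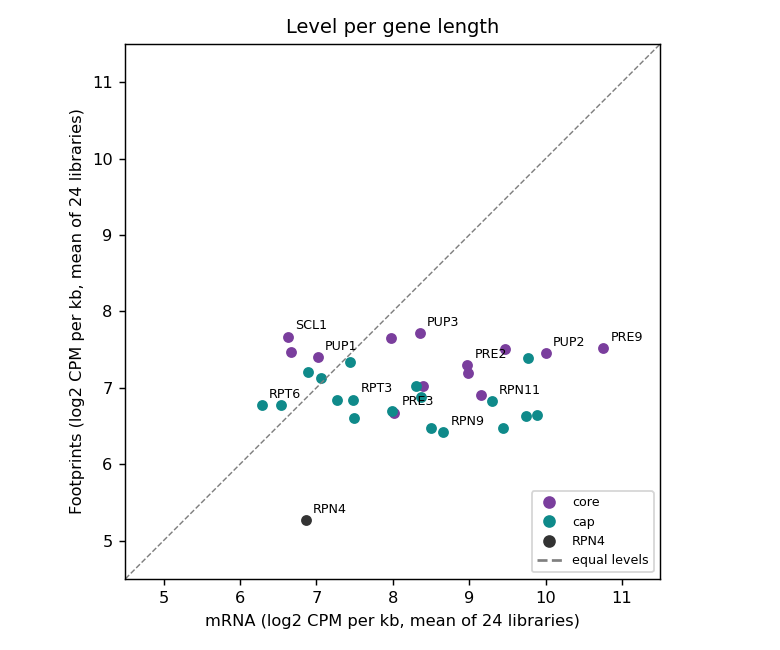
Footprint level against mRNA level, both as log2 CPM per kilobase and averaged over 24 libraries, for 13 core genes, 18 cap genes and RPN4, with selected genes named and a dashed line where the levels are equal. The subunits form a flat band, between 6.42 and 7.72 in footprints and between 6.29 and 10.76 in mRNA, and RPN4 lies under it at 5.27.

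The core spanned 2.06-fold and the cap 1.95-fold in footprints over all 24 libraries. In the 18 footprint libraries of 150000 or more reads, the 13 core genes lay closer together, with a span of 1.43-fold (7.25 for PRE3 to 7.77 for PUP2), and the 18 cap genes 2.17-fold (6.51 for RPN7 to 7.63 for RPN10). In the 10 of these that are not of replicate A the spans were 1.50-fold and 2.19-fold. The length used for PRE3 is the only one of the 32 that is not a multiple of 3 and thus includes an intron, which makes its value per length too low. SCL1 and PRE9, both of the alpha ring, had 7.67 and 7.51 in footprints and 6.62 and 10.76 in mRNA (SD over libraries 0.47 and 0.95 for footprints, 0.63 and 0.47 for mRNA). RPN4 had 5.27 in footprints, below every subunit, and 6.86 in mRNA, within their range.

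Core and cap had median mRNA slopes close to each other. The median slope was -0.12 for the core and -0.11 for the cap, and the difference of the medians fitted within 1 replicate was -0.09 in A, 0.04 in B and -0.04 in C, so that its sign was not shared. Per kilobase, the mean core mRNA level was above the mean cap level in all 24 libraries, by 0.10 to 0.53 log2 (median 0.39). In cells of 40, 55 and 75 fl the difference was 0.26 ± 0.18 (SD, n = 3), 0.46 ± 0.07 and 0.31 ± 0.15. The core genes had the wider range of slopes, from -0.25 to 0.03, against -0.20 to -0.02 in the cap.

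In footprints per kilobase the core was above the cap by a median of 0.59 log2 over the 24 libraries, and by 0.44 to 0.89 in the 18 libraries of 150000 or more reads. The exceptions were the 50 fl libraries of replicates B (-0.51) and C (-1.17), which held 83 and 108 core reads beside 170 and 312 cap reads, with 1 and 3 core genes at 0. Over the 16 libraries of B and C the median was 0.57, and over the 10 of them with 150000 or more reads the range was 0.46 to 0.78. At 40 fl the difference was 0.61 ± 0.07 (SD, n = 3), at 55 fl 0.59 ± 0.17 and at 75 fl 0.55 ± 0.09.

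Footprints of the 32 genes also went together in the deeper libraries. In the 18 deeper libraries the median correlation between pairs was 0.60, against -0.0040 over all pairs of counted genes, and in the 10 of them from replicates B and C it was 0.69. Over all 24 libraries it was 0.19, the same as over all gene pairs (0.19). The deeper libraries are also another mix of sizes and replicates, and whether depth makes the difference was not tested. Of the 32 genes 21 had at least 1 read in every footprint library, and the other 11 had 12 values of 0 among them, all in shallow libraries.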

How the data were processed

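Per the labels, 24 poly(A) mRNA and 24 ribosome footprint libraries were made from 8 cell sizes with 3 pools each. The authors deposited whole-number read counts of 3301 genes for both assays, without normalization, none with under 10 reads in any mRNA library, and a table of pooled log2 mRNA levels for 6713 ORFs; a log2 table of normalized levels deposited by the authors served only to check which count table is which assay (in 24 of 24 libraries of each, the same-named column was the closest). The submitters' processing notes list, without roles, SAMtools 1.3-1, RSEM 1.2.20, TopHat2 2.1.0, Bowtie 1.1.2, cutadapt 1.8, bcl2fastq 2.17.1.14 and build R64. Genes outside the count tables, PRE8 among them, were not analysed here in counts, and no column was left unmapped. How reads shared between genes were assigned, and whether strand was used in counting, are not given in the sources used here; values of overlapping or antisense genes are therefore uncertain.

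Counts were fitted with edgeR 4.0.16 under R 4.3.3 (robust quasi-likelihood, TMM by assay; filterByExpr removed none of the 3301 genes) and p-values were adjusted by Benjamini-Hochberg over all genes. Levels are log2 CPM with a prior count of 2. Differences of footprints and mRNA come from 1 model of 48 libraries. DESeq2 1.42.0 and limma-voom 3.58.1 were alternatives, besides other scalings, a block for replicate and left-out replicates and libraries. Symbols, lengths and coordinates are from RefSeq's table of assembly R64 (3260 of 3301 names matched). The tests were checked on simulated counts, and plots were drawn with matplotlib 3.10.9.

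The members, lists and tests were chosen with earlier results of these data known. Any member may be named; values by library are given for RPN4, PRE3, PUP1, PRE2, RPN11, the core and cap genes with the smallest and largest p of the mRNA slope, and members called in a test of footprints along size, as well as PUP2, which was added after its values were seen. Replicate letters are not stated to pair pools of different sizes. Deviations from the size means correlated by 0.05 on average between mRNA libraries of the same letter, and 39 of 84 pairs were above 0.1. The footprint and mRNA libraries of a pool share their cells and are paired by source (mean correlation 0.11, above 0.1 in 13 of 24 pools). P-values measure the spread between pools, and 0 reads are read against a limit of 3 reads, for counting error only.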

Additional observations from a re-analysis of the deposited data

Results flagged for a closer look

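The slope of footprints with size differed between replicate A and the mean of replicates B and C, by a test of the difference itself, for RPT2 (0.3192 log2 per 5 fl, edgeR adjusted p = 0.0208), RPN11 (0.3638, edgeR adjusted p = 0.014) and RPN4 (0.4187, edgeR adjusted p = 0.0104), each higher in A. Over all genes 856 of 3301 were called in the same test, so that the 3 genes share a difference between the replicates that is not limited to the proteasome. Their mRNA slopes were below 0 in all 3 replicates, and the cause was not tested.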

How the results depend on the processing

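The 3301 genes set the limit of the counts, and 6 shallow footprint libraries that of the footprints. With the replicate block the counts were the same as without it for mRNA slopes (22 fell), across sizes (10) and in both size contrasts (10 and 5), and 0 footprint and translational efficiency slopes were called. Replicate letters are not known to pair pools. Without replicates A, B or C in turn, 13 to 15 mRNAs fell along size, 0 to 10 differed across sizes, 0 to 10 fell in 50 to 60 fl against 40 and 45 fl cells and 0 to 10 in 65 to 75 fl against 50 to 60 fl cells; 0 to 1 footprint slopes and 0 to 1 footprints across sizes were called. Over all genes the fits without 1 replicate called 887 to 1007 mRNAs along size and 110 to 823 across sizes. In 50 to 60 fl against 40 and 45 fl cells they called 372 to 650. For 65 to 75 fl against 50 to 60 fl cells their counts over all genes are not given here. Leaving out 1 library gave 19 to 23 that fell along size, 4 to 12 and 2 to 8 in the size contrasts, 0 to 5 for replicate A against B and C, and 0 to 1 for translational efficiency. DESeq2 called 17 mRNAs across sizes (1385 over all genes), 19 footprint slopes in A against B and C and 3 translational efficiency slopes (127 over all genes). In 50 to 60 fl against 40 and 45 fl cells limma-voom called 6 (874 over all genes, against 870 in the main fit). Without the 3 mRNA libraries under 1000000 reads, an alternative chosen after seeing the data, the size contrasts gave 6 and 2. Counts over all genes are not given here for that alternative. They are also not given for A against B and C with DESeq2 and in the 2 fits named next. The count for A against B and C was 7 with median-of-ratios factors and 10 without the 6 shallow libraries. Translational efficiency slopes numbered 4 without these (54 over all genes) and 1 without the libraries in which 1 gene took over 5% of reads (12 over all genes). The slope of PUP1 changed sign, to -0.022 without the 3 shallow mRNA libraries, and ran from -0.0093 to 0.044 without 1 replicate; that of PRE7 was 0.00022 with median-of-ratios factors and ran from -0.0034 to 0.012 without 1 replicate, and none of these was called. Fewer samples enter each fit that leaves out libraries, and other causes were not tested. A planned search of promoters for the Rpn4 element was not run. The SD over subunits per length was 0.42 in footprints and 1.17 in mRNA with medians over libraries, and 0.43 in footprints without replicate A (chosen after seeing the data). The counts not named here moved by less than 1.5 times.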
